A study of Homo sapiens with 40 samples.

Results

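EGF-BT474 at 24 h is the comparison of BT474 cells given EGF for 24 h with BT474 cells given vehicle for 24 h. The members are the 4 libraries that their titles place in these groups, 2 with EGF and 2 with vehicle, of 40 libraries in all, and the 25146 genes, of 44584 in the count table, that had at least 1 count in at least 10 of the 20 BT474 libraries. BT474 is an established line of breast ductal carcinoma cells that carry extra copies of ERBB2, the gene of the receptor HER2, and respond to trastuzumab, an antibody against HER2. The cells had been starved of serum, after which the EGF group received 50 ng/mL of EGF and the vehicle group received water, both in fresh starvation medium. The study also sampled BT474 at T0, before any addition, and at the earlier times of 1 h and 12 h, gave a second ligand, heregulin (HRG, 10 ng/mL), at the same times, and repeated the design in BT474R, a trastuzumab-resistant line that is 1 clone, grown out of BT474 in the presence of trastuzumab. RNA was read as poly(A)-selected libraries, 2 per group. Treatments were made in duplicate, and no source states that the duplicates were independent experiments, so p-values measure the spread between duplicate treatments.

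EGF is a secreted growth factor that binds the receptor EGFR, and the bound receptor pairs with another EGFR or with ERBB2, ERBB3 or ERBB4. Paired receptors phosphorylate each other and switch on the RAS-MAP kinase cascade and the PI3K-AKT pathway, which act on transcription within minutes through factors such as FOS and EGR1. Later, the cascade is held back by its own products, among them the DUSP phosphatases and Sprouty proteins, and cells that were arrested without serum can enter the cell cycle.

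The 4 libraries held between 19941960 and 26367095 counts, so that 3 counts, taken here as the limit of detection, equalled 0.115 to 0.146 CPM, the counts of a gene scaled to a library of 1000000. The top 50 genes took between 14.3% and 14.4% of the counts in each. The markers of HER2-positive luminal breast epithelium were present in all 4 libraries (11 of 11 above 1 CPM), and their summed level was between 13875 and 14351 CPM, with overlapping groups. Leukocyte markers summed to 0.956 to 1.56 CPM, with CD3E at 0, and among fibroblast markers DCN, PDGFRB and THY1 were at 0 while COL1A1 alone gave 98.3 to 108 CPM. Endothelial markers summed to 15.9 to 18.3 CPM, nearly all of it VWF, with PECAM1 at or below 0.0488 CPM. Adipocyte markers summed to 1.71 and 1.58 CPM with vehicle and 0.879 and 0.330 CPM with EGF, nearly all of it PLIN1, and their part in the results was not tested. In bulk RNA, fewer cells that make a transcript and less of it per cell cannot be told apart.

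After 24 h, EGF was associated with many small differences. By edgeR's quasi-likelihood F test with Benjamini-Hochberg adjustment, called edgeR below, 4113 of 25146 genes (16.4%) passed an adjusted p of 0.05 and are called DEGs here. Of these, 2441 were higher with EGF (9.71% of genes tested) and 1672 were lower (6.65%). Counts of gene-list members called, given below, are to be read beside these 2 shares. Over the DEGs, the absolute log2 fold change had a median of 0.31, and 3213 of them (78.1%) changed by less than 1.5-fold. A change of at least 2-fold was found for 225 DEGs that rose and 226 that fell. The EGF and vehicle libraries did not overlap in 99.3% of the DEGs, against 49.4% of all genes tested. As the DEGs were chosen by a test on these same libraries, their share follows largely from that choice. The number of DEGs was 2562 without vehicle replicate 2, 3325 without EGF replicate 1, 3346 without vehicle replicate 1 and 3909 without EGF replicate 2. By the same test, DEGs numbered 550 at 1 h (2.19%, 416 higher, 1.65%, and 134 lower, 0.533%) and 4030 at 12 h (16.0%, 2273 higher, 9.04%, and 1757 lower, 6.99%). Values after ± are standard errors taken from the F statistics.

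**Figure D1:**
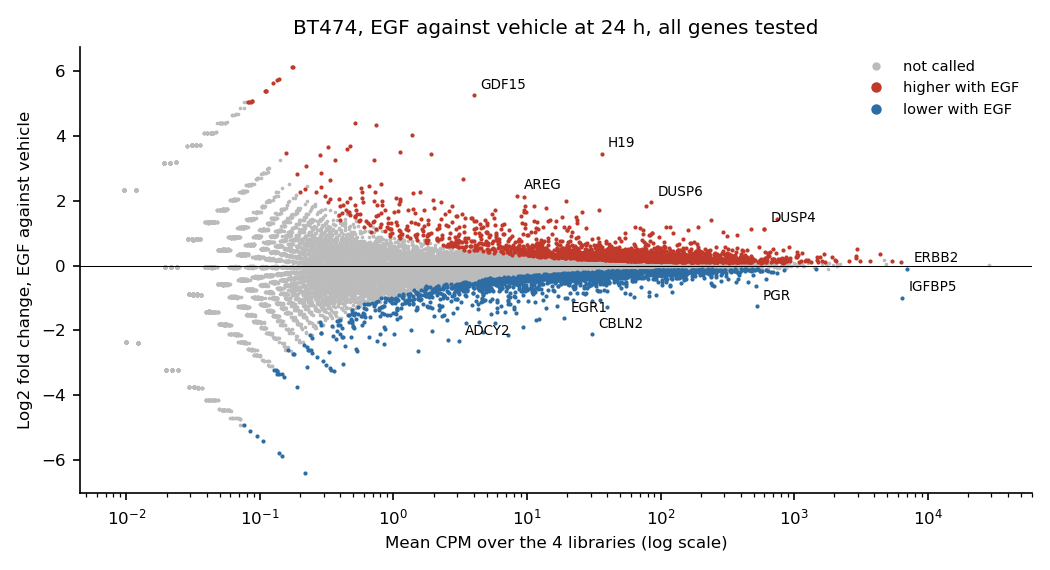
Log2 fold change of EGF against vehicle at 24 h in BT474 for each of the 25146 genes tested, plotted over its mean CPM in the 4 libraries on a log scale. Red points are the 2441 genes higher with EGF, blue points the 1672 lower and grey points those not called; called genes with a small change lie at high levels, and the fans at the left edge are genes of a few counts.

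GDF15 and H19 rose most among DEGs that averaged 1 CPM or more, leaving out names starting with LOC and rows that repeat a gene name, as for all such rankings here. GDF15, a secreted stress cytokine of the TGF-beta superfamily, had 0.244 and 0.158 CPM with vehicle and 6.31 and 9.24 CPM with EGF, which is 38.0-fold higher (log2 fold change 5.25 ± 0.29, edgeR adjusted p = 9.1e-17). In vehicle these were 5 and 4 counts, just above the limit, and in EGF 165 and 196 counts. H19, an imprinted long noncoding RNA, had 6.73 and 5.37 CPM with vehicle and 48.3 and 84.3 CPM with EGF (log2 fold change 3.46 ± 0.19, edgeR adjusted p = 9.1e-17), and the 2 EGF libraries lay well apart from each other but far above vehicle. AREG, which encodes the EGFR ligand amphiregulin, had 3.51 and 2.73 CPM with vehicle and 13.8 and 13.9 CPM with EGF, close values within each group and 4.47-fold higher with EGF (log2 fold change 2.16 ± 0.14, edgeR adjusted p = 4.4e-15).

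A pair of ETS transcription factors of the PEA3 group, both known as targets of MAP kinase signalling, were among the 12 genes that rose most. ETV4 had 7.36 and 8.49 CPM with vehicle and 30.8 and 32.1 CPM with EGF (log2 fold change 1.98 ± 0.09, edgeR adjusted p = 1.1e-19), and ETV1 rose from a level under 1 CPM by a log2 of 2.24 ± 0.32. The water and glycerol channel AQP3 had 0.829 and 0.948 CPM with vehicle and 5.24 and 6.22 CPM with EGF (log2 fold change 2.66 ± 0.23, edgeR adjusted p = 2.2e-11), with no overlap between groups. FIBCD1, a membrane receptor for acetylated sugars, rose by a log2 of 2.12 ± 0.12, and BPIFA2, a secreted salivary protein, by 2.01 ± 0.30. The early growth response factor EGR3, MAB21L3 and TMEM40 stood below 1 CPM in vehicle and rose by log2 values between 2.05 and 2.28. CA9, a carbonic anhydrase induced in hypoxia, had 0.293 and 0.553 CPM with vehicle and 0.918 and 2.73 CPM with EGF, and its rise of 2.00 rested on EGF replicate 2, without which it was 1.07 and not called.

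The 12 DEGs that fell furthest by the same criteria were, apart from CBLN2, at 15.7 CPM or less in vehicle. PTPRQ, a receptor-type phosphatase, had 2.88 and 2.41 CPM with vehicle and 0.421 and 0.424 CPM with EGF (log2 fold change -2.62 ± 0.32, edgeR adjusted p = 6.9e-08). ADCY2, an adenylate cyclase that makes cyclic AMP, had 5.61 and 4.66 CPM with vehicle and 0.994 and 1.04 CPM with EGF and was 5.01-fold lower (log2 fold change -2.33 ± 0.21, edgeR adjusted p = 4.3e-11). LEF1, a transcription factor that carries Wnt signals, had 4.44 and 4.15 CPM with vehicle and 1.03 and 0.660 CPM with EGF (log2 fold change -2.30 ± 0.25, edgeR adjusted p = 3.9e-09). In each of these the higher EGF library was below the lower vehicle library by over 2-fold.

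CBLN2, a secreted synapse organiser, was the most abundant of the 12, with 50.8 and 48.7 CPM with vehicle and 12.1 and 10.7 CPM with EGF (log2 fold change -2.12 ± 0.08, edgeR adjusted p = 5.0e-21). The potassium channel gene KCNJ13 had 11.6 and 12.0 CPM with vehicle and 3.14 and 2.07 CPM with EGF, and GPAT3, an acyltransferase of triglyceride synthesis, had 8.14 and 7.07 CPM with vehicle and 1.87 and 1.74 CPM with EGF. MAT1A, which makes S-adenosylmethionine, the sodium channel gene SCN1A, STXBP5L, the glutamate receptor gene GRIK2 and the actin regulator FHOD3 fell, with log2 fold changes between -1.77 and -2.12, and that of SCN1A was -3.10 without EGF replicate 1 and -1.62 without EGF replicate 2. SOCS2-AS1 fell (log2 fold change -1.97 ± 0.30), and so did SOCS2, a suppressor of cytokine signalling, which had 18.0 and 19.1 CPM with vehicle and 5.28 and 6.69 CPM with EGF (log2 fold change -1.65 ± 0.11, edgeR adjusted p = 2.2e-14). These overlap on opposite strands, and as the strand setting of the counting is not stated, their reads cannot be told apart. The plot of the top 12 genes in each direction shows every library.

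**Figure D2:**
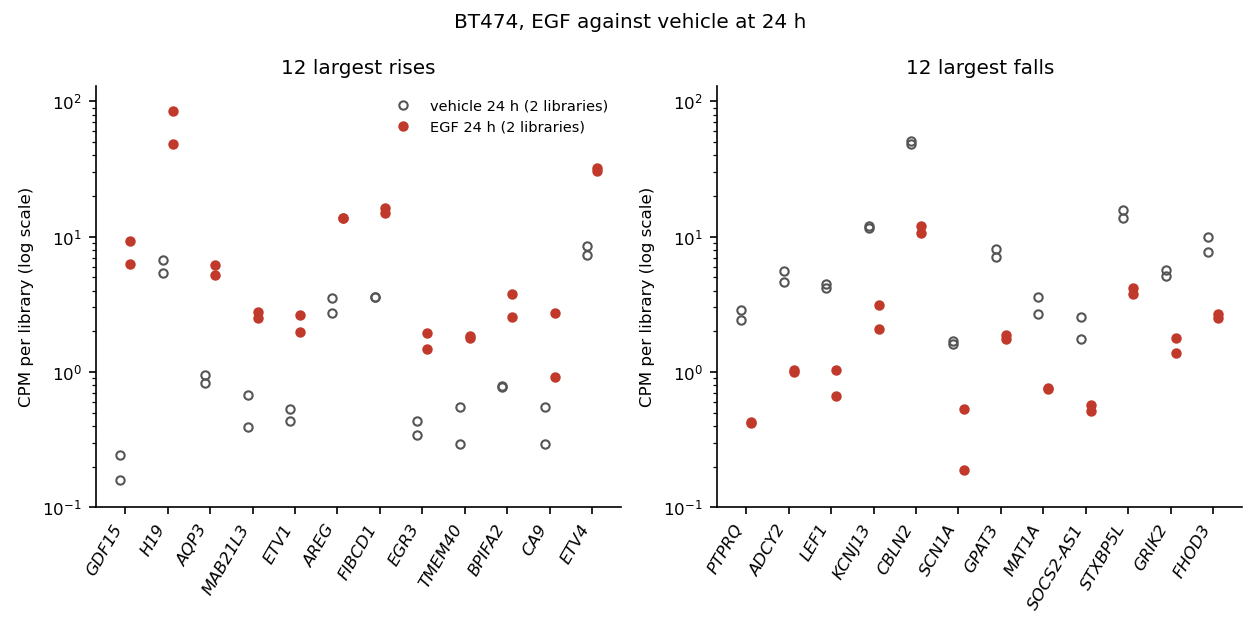
CPM in each library, on a log scale, of the 12 DEGs with the largest rise and the 12 with the largest fall, each averaging 1 CPM or more and leaving out LOC names and repeated names, EGF against vehicle at 24 h in BT474. Open circles are the 2 vehicle libraries and red circles the 2 EGF libraries; the groups do not overlap in any of the 24 genes, which the choice of genes required, and the EGF libraries are furthest apart in CA9 and SCN1A.

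Among the 4 receptors of the family, ERBB4 changed most. ERBB4 had 35.4 and 36.1 CPM with vehicle and 20.5 and 18.99 CPM with EGF (log2 fold change -0.85 ± 0.08, edgeR adjusted p = 7.2e-11), without overlap. EGFR, the receptor of EGF, had 110.2 and 104 CPM with vehicle and 105 and 124 CPM with EGF and was not called (log2 fold change 0.09 ± 0.06, edgeR adjusted p = 0.39), though without EGF replicate 1 it was 0.21 higher and called. ERBB2 had 7099.6 and 7397 CPM with vehicle and 6777 and 6848 CPM with EGF, a fall of 1.06-fold (log2 fold change -0.09 ± 0.02, edgeR adjusted p = 0.0091) that was not called without vehicle replicate 2. ERBB3, which signals through its partners, had 261 and 278 CPM with vehicle and 249 and 247 CPM with EGF (log2 fold change -0.12 ± 0.04, edgeR adjusted p = 0.021) and was not called without EGF replicate 2 or without vehicle replicate 2. So 3 of 4 receptors were lower and 0 higher (median log2 fold change -0.11, against -0.02 over all genes tested), but 1 was lower without vehicle replicate 2, with only the 4 libraries compared or in 1 fit of both lines.

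Of 10 genes of ERBB ligands tested, 3 rose and 1 fell, and the median log2 fold change was 0.62. The rises were AREG, above, EPGN, and BTC, which encodes betacellulin. EPGN was at the limit in vehicle and averaged only 0.20 CPM over the 4 libraries, and by DESeq2 2 ligand genes were called higher. BTC had 2.63 and 1.98 CPM with vehicle and 3.25 and 4.62 CPM with EGF (log2 fold change 0.77 ± 0.20, edgeR adjusted p = 0.0053) and was not called without EGF replicate 2 (0.51) or without vehicle replicate 2 (0.55). Without vehicle replicate 2, only 1 ligand gene was called higher. NRG3, a ligand of ERBB4, fell from 4.83 and 3.67 CPM to 2.79 and 2.40 CPM (log2 fold change -0.69 ± 0.17, edgeR adjusted p = 0.0041), a call lost without vehicle replicate 1 (-0.49).

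Feedback genes of the MAP kinase cascade rose at 24 h in 10 of 22 cases and fell in 2 (median 0.17). DUSP6, the phosphatase that inactivates ERK, had 33.4 and 36.3 CPM with vehicle and 132 and 139 CPM with EGF, 3.87-fold higher (log2 fold change 1.95 ± 0.06, edgeR adjusted p = 6.3e-25). SPRY4, a Sprouty inhibitor of receptor signalling, had 11.1 and 13.7 CPM with vehicle and 37.7 and 40.9 CPM with EGF (log2 fold change 1.65 ± 0.09, edgeR adjusted p = 1.3e-16). DUSP4, a nuclear MAP kinase phosphatase at a higher level, had 359 and 383 CPM with vehicle and 784 and 853 CPM with EGF (log2 fold change 1.14 ± 0.04, edgeR adjusted p = 2.3e-23). Both vehicle libraries lay below both EGF libraries in all 3. The members that fell were both of the SOCS family, SOCS2, above, and SOCS3, which had 2.93 and 3.79 CPM with vehicle and 2.33 and 1.79 CPM with EGF and whose call (log2 fold change -0.70 ± 0.22, edgeR adjusted p = 0.025) was lost without EGF replicate 2 or vehicle replicate 2 and by DESeq2 (adjusted p = 0.0824).

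Immediate early factors, which receptor signals switch on within an hour, were called in both directions at 24 h. All 18 were called higher after 1 h of EGF, against 1.65% of all genes, and at 24 h 6 of the 18 were higher and 4 lower (median 0.08), or 5 higher and 2 lower in 1 fit of both lines. EGR1, a zinc finger factor, had 26.8 and 30.7 CPM with vehicle and 9.56 and 9.09 CPM with EGF at 24 h, 3.09-fold lower (log2 fold change -1.63 ± 0.10, edgeR adjusted p = 7.9e-16), after a log2 rise of 3.75 at 1 h. FOS, a subunit of AP-1, had 3.22 and 3.04 CPM with vehicle and 1.49 and 1.84 CPM with EGF (log2 fold change -0.92 ± 0.21, edgeR adjusted p = 0.0012), after a rise of 4.13 at 1 h. FOSL2, another AP-1 subunit, had 182 and 163 CPM with vehicle and 129 and 123 CPM with EGF (log2 fold change -0.45 ± 0.05, edgeR adjusted p = 7.3e-09). In contrast, IER3, an early response gene linked to survival, stayed higher, with 2.49 and 2.65 CPM with vehicle and 6.19 and 5.23 CPM with EGF (log2 fold change 1.16 ± 0.18, edgeR adjusted p = 4.3e-06). EGR3, above, also stayed higher, and ATF3, a stress-inducible factor, had 1.27 and 1.03 CPM with vehicle and 1.95 and 2.45 CPM with EGF, a call lost without EGF replicate 2 (0.78) or vehicle replicate 2 (0.77). The table holds further rows that repeat the names IER3 and H19, between which reads could have been split.

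Genes of DNA replication and mitosis were higher with EGF almost throughout, each by a small amount. In the replication list, 30 of 34 members rose and 0 fell, with a median log2 fold change of 0.24. RRM2, the regulated subunit of ribonucleotide reductase, had 194 and 193 CPM with vehicle and 270.1 and 276 CPM with EGF (log2 fold change 0.50 ± 0.05, edgeR adjusted p = 1.0e-10). GINS4, part of the replicative helicase, and RFC3, part of the clamp loader, rose by log2 values of 0.48 ± 0.07 and 0.40 ± 0.07. In the mitosis list, 32 of 33 members rose and 0 fell (median 0.39), and CDC25C, with a log2 fold change of 0.29 and an edgeR adjusted p of 0.0554, was the member not called. PLK1, the polo-like kinase that drives mitotic entry, had 37.8 and 37.3 CPM with vehicle and 58.8 and 50.8 CPM with EGF (log2 fold change 0.55 ± 0.07, edgeR adjusted p = 3.5e-08). KIF2C, a microtubule depolymerase of the centromere, had 36.9 and 35.4 CPM with vehicle and 52.7 and 51.5 CPM with EGF (log2 fold change 0.53 ± 0.06, edgeR adjusted p = 2.4e-09), and CENPA, the centromeric histone, had 11.4 and 10.6 CPM with vehicle and 15.8 and 15.4 CPM with EGF (log2 fold change 0.51 ± 0.10, edgeR adjusted p = 1.9e-04). Over 13 other settings the number of members called higher was between 21 and 31 for replication and between 28 and 33 for mitosis, lowest without vehicle replicate 2 in both.

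Among 17 G1 cyclins and CDK inhibitors, 7 rose and 3 fell (median 0.18). The largest rise was in an inhibitor, CDKN1A, which encodes p21, with 8.68 and 7.15 CPM with vehicle and 19.8 and 21.5 CPM with EGF (log2 fold change 1.39 ± 0.11, edgeR adjusted p = 1.8e-12). CDKN2D, an inhibitor of CDK4 and CDK6, had 7.07 and 5.25 CPM with vehicle and 10.1 and 8.95 CPM with EGF, a rise of 0.65 that was 0.42 and not called without vehicle replicate 2. CCNE1, cyclin E1, rose by 0.37 ± 0.10, a call lost without EGF replicate 1 (0.23). RBL2, which encodes p130, the pocket protein of resting cells, had 131 and 126 CPM with vehicle and 89.0 and 90.7 CPM with EGF (log2 fold change -0.51 ± 0.05, edgeR adjusted p = 9.1e-11). CDK6 and CDKN2B were called lower, with log2 fold changes of -0.39 and -0.65, but not without EGF replicate 1 (-0.19 and -0.57), which left 1 member called lower, and CDK6 not without vehicle replicate 2 (-0.26) nor CDKN2B without vehicle replicate 1 (-0.54) or by DESeq2 (adjusted p = 0.0611).

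Promoters of these lists were searched for short motifs, to show what cell-cycle promoters look like beside the values. The search covered the 250 bases before each start site in the RefSeq table (GRCh38.p14), both strands, for the 11575 tested genes that the table holds. The cell cycle homology region CHR (TTTGAA), bound in resting cells by the DREAM complex, was present in 13 of 24 mitosis promoters (54.2%) and in 9.71% of all promoters. CHR together with a CCAAT box (CCAAT) was present in 11 of the 24 (45.8%) and in 3.76% of all. A CCAAT box, with or without CHR, was present in 75% of mitosis, 56.5% of replication and 34.4% of all promoters. It was not particular to these lists. Of other lists searched, described below, it stood in 85.7% of sterol, 80% of integrated stress response, 40% of immediate early and 33.3% of glycolysis promoters. An E2F motif (TTTCCCGC or TTTGGCGC) was present in 8 of 23 replication promoters (34.8%), in 2 of 24 mitosis promoters (8.33%) and in 2.76% of all. No motif among these contains another, and a match describes the letters of the window, not a site. Over promoters of genes called higher, CHR alone or with other motifs stood in 9.43%, no more than the 9.71% of all. CHR with CCAAT stood there in 6.44% and E2F in 4.40%. Over promoters of genes called lower these shares were 6.72%, 2.81% and 1.83%. The genes called higher include members of the mitosis and replication lists.

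PLK1 (chr16:23678639-23678888, plus strand), PRC1 (chr15:90994536-90994785, minus strand) and CCNB2 (chr15:59104896-59105145, plus strand) are shown as mitosis promoters that hold both motifs, with CHR and CCAAT in capitals, 5′ to 3′ on the strand of the gene. PRC1, a midzone protein of the dividing cell, and CCNB2, cyclin B2, were chosen for their motifs after their values were seen.
PLK1: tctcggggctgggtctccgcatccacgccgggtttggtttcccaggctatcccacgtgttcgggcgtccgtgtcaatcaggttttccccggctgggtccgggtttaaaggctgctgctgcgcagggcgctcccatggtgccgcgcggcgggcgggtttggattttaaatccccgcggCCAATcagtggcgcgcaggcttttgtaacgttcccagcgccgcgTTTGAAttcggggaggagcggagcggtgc
PRC1: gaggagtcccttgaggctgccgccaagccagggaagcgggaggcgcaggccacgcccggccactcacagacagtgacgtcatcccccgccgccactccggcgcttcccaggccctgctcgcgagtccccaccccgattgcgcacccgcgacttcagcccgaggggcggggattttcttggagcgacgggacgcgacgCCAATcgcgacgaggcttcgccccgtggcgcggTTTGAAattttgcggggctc
CCNB2: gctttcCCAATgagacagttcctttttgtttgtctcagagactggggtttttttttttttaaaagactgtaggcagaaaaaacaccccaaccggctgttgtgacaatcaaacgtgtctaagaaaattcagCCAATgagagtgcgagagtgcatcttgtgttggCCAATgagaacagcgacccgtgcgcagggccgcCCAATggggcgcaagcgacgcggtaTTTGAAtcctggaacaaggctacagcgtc
The CHR ends of these promoters lie close to the start, with the motif beginning 29 bases before it in PLK1, 20 in PRC1 and 29 in CCNB2, and a CCAAT box stands upstream of it in each. PRC1 had 80.2 and 79.2 CPM with vehicle and 115 and 107 CPM with EGF (log2 fold change 0.48 ± 0.05, edgeR adjusted p = 4.3e-10) and CCNB2 had 40.6 and 35.1 CPM with vehicle and 48.9 and 41.4 CPM with EGF (log2 fold change 0.27 ± 0.07, edgeR adjusted p = 0.0051), so both lay higher in each EGF library than in each vehicle library.

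MCM6 (chr2:135876444-135876693, minus strand), TYMS (chr18:657403-657652, plus strand) and CDT1 (chr16:88803539-88803788, plus strand) are shown as replication promoters with the E2F motif in capitals, which reads GCGGGAAA where it lies on the opposite strand. MCM6 is a subunit of the replicative helicase, TYMS encodes thymidylate synthase and CDT1 licenses origins, and they too were chosen for their motifs after their values were seen.
MCM6: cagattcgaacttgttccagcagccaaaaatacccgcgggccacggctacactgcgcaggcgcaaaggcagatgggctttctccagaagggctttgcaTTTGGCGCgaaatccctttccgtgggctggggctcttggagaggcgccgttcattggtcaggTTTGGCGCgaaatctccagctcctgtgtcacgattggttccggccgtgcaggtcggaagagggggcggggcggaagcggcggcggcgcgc
TYMS: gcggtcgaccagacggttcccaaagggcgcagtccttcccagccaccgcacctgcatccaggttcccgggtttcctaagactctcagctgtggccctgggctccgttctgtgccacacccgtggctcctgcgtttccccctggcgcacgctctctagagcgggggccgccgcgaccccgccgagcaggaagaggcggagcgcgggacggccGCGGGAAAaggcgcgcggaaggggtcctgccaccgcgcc
CDT1: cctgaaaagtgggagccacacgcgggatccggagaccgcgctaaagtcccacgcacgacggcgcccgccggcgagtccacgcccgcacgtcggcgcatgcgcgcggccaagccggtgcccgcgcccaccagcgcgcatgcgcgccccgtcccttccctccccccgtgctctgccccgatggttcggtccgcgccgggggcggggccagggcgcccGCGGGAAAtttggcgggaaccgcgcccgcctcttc
MCM6 had 142 and 140.4 CPM with vehicle and 155 and 165 CPM with EGF (log2 fold change 0.18 ± 0.04, edgeR adjusted p = 0.0010). TYMS had 56.1 and 59.6 CPM with vehicle and 64.7 and 70.6 CPM with EGF (log2 fold change 0.22 ± 0.06, edgeR adjusted p = 0.0032), and CDT1 had 51.7 and 49.9 CPM with vehicle and 57.5 and 58.3 CPM with EGF (log2 fold change 0.19 ± 0.06, edgeR adjusted p = 0.015). All 3 lay below the median of the list.

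Most of the lipid synthesis genes tested rose. Of 24 genes of sterol synthesis and uptake, 19 rose and 0 fell (median 0.35), and of 14 genes of fatty acid synthesis 11 rose and 0 fell (median 0.35). In 1 fit of both lines 15 sterol genes rose, and with only the 4 libraries compared 8 fatty acid genes did. With filterByExpr, edgeR's own filter on low counts, 1 fatty acid gene was called lower. FDPS, farnesyl diphosphate synthase of the mevalonate pathway, had 140.4 and 125 CPM with vehicle and 214 and 229 CPM with EGF (log2 fold change 0.74 ± 0.05, edgeR adjusted p = 1.0e-14). STARD4, a carrier of cholesterol, rose by a log2 of 0.75 ± 0.10. ACSS2, which makes acetyl-CoA from acetate, had 296 and 307 CPM with vehicle and 518 and 798 CPM with EGF (log2 fold change 1.12 ± 0.09, edgeR adjusted p = 3.2e-12), with EGF replicate 2 well above EGF replicate 1 and both above vehicle. SCD, the desaturase that makes oleate, had 2537 and 2371 CPM with vehicle and 3320.3 and 3625 CPM with EGF (log2 fold change 0.50 ± 0.04, edgeR adjusted p = 9.3e-14), and the elongase ELOVL6 rose by 0.47 ± 0.06.

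Glycolysis and lactate export genes rose in 20 of 22 cases, with 0 lower and a median of 0.33, or in 15 in 1 fit of both lines. ALDOC, an aldolase, had 4.19 and 3.79 CPM with vehicle and 6.997 and 8.58 CPM with EGF (log2 fold change 0.96 ± 0.17, edgeR adjusted p = 5.3e-05), and ENO2, an enolase, had 21.8 and 19.7 CPM with vehicle and 28.9 and 37.8 CPM with EGF (log2 fold change 0.68 ± 0.09, edgeR adjusted p = 3.1e-07). The lactate carrier SLC16A1 had 2.10 and 1.98 CPM with vehicle and 2.75 and 3.96 CPM with EGF (log2 fold change 0.70 ± 0.22, edgeR adjusted p = 0.020), a call lost by DESeq2 (adjusted p = 0.0684), with copies summed (0.59), and without EGF replicate 2 (0.44), vehicle replicate 1 (0.74) or vehicle replicate 2 (0.65). Nuclear subunits of oxidative phosphorylation were higher in 11 of 35 cases and lower in 1 (median 0.10). That count was 1 without vehicle replicate 2 and 2 without EGF replicate 1, so it rested on those libraries. The largest of these rises, in NDUFB9 of complex I, was 0.22 ± 0.05, and those of NDUFS1 and SDHB, 0.21 and 0.20, were not called without either of the same libraries (0.13 to 0.17). SDHC had a log2 fold change of -0.12 and was not called by DESeq2 (adjusted p = 0.0530) or without EGF replicate 1 or either vehicle replicate.

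Genes of protein production moved in small steps. Ribosome biogenesis genes were higher in 16 of 30 cases and lower in 0 (median 0.19), but in 10 without vehicle replicate 2. DDX21, an RNA helicase of the nucleolus, had 204 and 201 CPM with vehicle and 241 and 269 CPM with EGF (log2 fold change 0.33 ± 0.04, edgeR adjusted p = 2.1e-07), RRP12 rose by 0.30 ± 0.06, and LYAR by 0.34 ± 0.10, the last not called without EGF replicate 2 (0.23) or vehicle replicate 2 (0.29). Of 20 cytosolic aminoacyl-tRNA synthetases, which charge tRNAs with amino acids, 14 rose and 0 fell (median 0.22), or 9 without vehicle replicate 2. YARS1 had 73.1 and 69.4 CPM with vehicle and 95.6 and 87.4 CPM with EGF (log2 fold change 0.36 ± 0.05, edgeR adjusted p = 4.3e-07), and VARS1 and WARS1 rose by 0.30 and 0.29, the first not called without EGF replicate 1 or vehicle replicate 2 (0.28 in both) and the second not without EGF replicate 2 (0.18). Of 14 amino acid transporters, 5 rose and 1 fell (median 0.17). SLC7A5, the large neutral amino acid carrier, had 192 and 163 CPM with vehicle and 266 and 235 CPM with EGF (log2 fold change 0.50 ± 0.06, edgeR adjusted p = 7.6e-09), SLC1A4 and SLC7A1 rose by 0.40 and 0.35, and the cationic carrier SLC7A2 fell (-0.22 ± 0.04).

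The integrated stress response, the programme that ATF4 directs when translation is restrained, had 11 of 21 members higher and 1 lower (median 0.21). GDF15, above, stood far from the rest of that list. VEGFA, the vascular growth factor, had 131 and 123 CPM with vehicle and 189.8 and 218 CPM with EGF (log2 fold change 0.69 ± 0.06, edgeR adjusted p = 4.3e-12). CHAC1, which degrades glutathione, had 1.12 and 1.46 CPM with vehicle and 2.45 and 2.03 CPM with EGF (log2 fold change 0.78 ± 0.25, edgeR adjusted p = 0.025), and ATF5 had a log2 fold change of -0.30. Both calls were lost by DESeq2 (adjusted p = 0.0714 and 0.102) and without EGF replicate 1 (0.63 and -0.12), that of CHAC1 also without vehicle replicate 1 (0.62) and that of ATF5 without vehicle replicate 2 (-0.21). Endoplasmic reticulum chaperones and quality control genes were higher in 5 of 18 cases and lower in 2 (median 0.04). DNAJB11, a co-chaperone of BiP, had 58.4 and 56.8 CPM with vehicle and 73.7 and 77.2 CPM with EGF (log2 fold change 0.39 ± 0.05, edgeR adjusted p = 5.0e-07), EDEM1 and XBP1 rose by 0.27 and 0.21, and SEL1L, of the degradation machinery, had 424 and 424 CPM with vehicle and 337 and 353 CPM with EGF (log2 fold change -0.30 ± 0.04, edgeR adjusted p = 3.6e-08). CALR, calreticulin, had a log2 fold change of -0.14 that was not called without EGF replicate 2 (-0.09) or vehicle replicate 1 (-0.08).

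Steroid receptors and luminal transcription factors were lower in 9 of 18 cases and higher in 4 (median -0.12). PGR, the progesterone receptor, had 760.4 and 715 CPM with vehicle and 297 and 326 CPM with EGF, 2.37-fold lower (log2 fold change -1.24 ± 0.05, edgeR adjusted p = 3.6e-20). ESR1, estrogen receptor alpha, had 123 and 124 CPM with vehicle and 85.4 and 78.9 CPM with EGF (log2 fold change -0.59 ± 0.05, edgeR adjusted p = 2.6e-11), and GATA3, a factor that specifies luminal cells, had 521 and 541 CPM with vehicle and 383 and 372 CPM with EGF (log2 fold change -0.49 ± 0.04, edgeR adjusted p = 4.4e-13). The libraries of the 2 groups were far from overlapping in all 3. The 4 members that rose did so by small amounts, among them ELF3 (0.23 ± 0.05), XBP1, above, and TFAP2A (0.16), whose call was lost without EGF replicate 2 (0.11) or vehicle replicate 1 (0.10). Without either of those libraries, 2 members of the list were called higher.

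Estrogen receptor targets were divided, with 6 of 24 higher and 6 lower (median -0.03). IGFBP5, a binding protein of insulin-like growth factors and among the most abundant transcripts, had 9024 and 8203 CPM with vehicle and 4634 and 4065 CPM with EGF (log2 fold change -0.99 ± 0.04, edgeR adjusted p = 3.4e-20). KCNK5 had a log2 fold change of -0.83 from a low level, not called without EGF replicate 2 (-0.66), vehicle replicate 1 (-0.80) or vehicle replicate 2 (-0.86). FHL2, a LIM-domain cofactor, had 3.22 and 2.69 CPM with vehicle and 6.46 and 7.68 CPM with EGF (log2 fold change 1.26 ± 0.16, edgeR adjusted p = 1.6e-07), AGR2, a secretory pathway protein, had 291 and 283 CPM with vehicle and 389.7 and 408 CPM with EGF (log2 fold change 0.48 ± 0.04, edgeR adjusted p = 5.6e-13), and CA12, a carbonic anhydrase, rose by 0.46 ± 0.05. Androgen receptor targets were higher in 6 of 17 cases and lower in 0 (median 0.25). SLC45A3, a membrane transporter, had 0.975 and 0.830 CPM with vehicle and 2.6 and 3.63 CPM with EGF (log2 fold change 1.77 ± 0.28, edgeR adjusted p = 6.9e-06), the efflux pump ABCC4 had 13.2 and 15.2 CPM with vehicle and 28.3 and 30.1 CPM with EGF (log2 fold change 1.03 ± 0.09, edgeR adjusted p = 6.0e-12), and PIP, a secreted apocrine protein, rose by 0.78 ± 0.18.

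Keratins, the intermediate filaments of epithelia, rose in both classes. All 4 luminal keratins rose (median 0.33), KRT18 from 567 and 583 CPM to 787 and 853 CPM (log2 fold change 0.51 ± 0.04, edgeR adjusted p = 6.6e-14), KRT7 by 0.38 ± 0.03 and KRT8 by 0.28 ± 0.03. Of 12 basal and squamous keratins, 6 rose and 0 fell, with a median of 1.00, or 3 without vehicle replicate 1. KRT15 had 53.5 and 60.2 CPM with vehicle and 103 and 126 CPM with EGF (log2 fold change 1.00 ± 0.07, edgeR adjusted p = 1.1e-14), and KRT80 had 36.9 and 35.0 CPM with vehicle and 73.9 and 69.9 CPM with EGF (log2 fold change 1.00 ± 0.06, edgeR adjusted p = 1.3e-16). KRT16 stood at 0.585 and 0.593 CPM in vehicle and 1.61 and 2.36 CPM in EGF (log2 fold change 1.72 ± 0.32, edgeR adjusted p = 9.2e-05). KRT5 and KRT14, the defining keratins of basal cells, were at 0.236 CPM or less in every library. Keratins of this class have near-identical copies, so reads of the low ones could be shared.

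Epithelial junction genes were higher in 7 of 18 cases and lower in 0 (median 0.06), or 4 without vehicle replicate 2 and 3 with only the 4 libraries compared. CLDN7, a claudin, had 55.1 and 55.2 CPM with vehicle and 72.6 and 71.8 CPM with EGF (log2 fold change 0.39 ± 0.06, edgeR adjusted p = 1.2e-06), and EPCAM and TJP3 had log2 fold changes of 0.19 and 0.19, the first not called without EGF replicate 2 (0.12) and the second not without EGF replicate 1 (0.11) or vehicle replicate 2 (0.18). Genes linked to the mesenchymal state went both ways, with 2 of 14 higher and 3 lower (median -0.37). CDH2, N-cadherin, had 30.7 and 28.8 CPM with vehicle and 15.6 and 13.01 CPM with EGF (log2 fold change -1.05 ± 0.09, edgeR adjusted p = 2.4e-11), and TWIST1, a factor that represses epithelial genes, had 14.2 and 13.7 CPM with vehicle and 6.84 and 6.13 CPM with EGF (log2 fold change -1.09 ± 0.11, edgeR adjusted p = 9.2e-10). VIM, vimentin, had a log2 fold change of -0.29, which was -0.19 and not called without vehicle replicate 1, while TGFBI, a matrix protein induced by TGF-beta, had 2.88 and 3.12 CPM with vehicle and 8.37 and 8.39 CPM with EGF (log2 fold change 1.48 ± 0.15, edgeR adjusted p = 5.0e-10). The summed level of the basal or mesenchymal markers was 77.8 and 71.0 CPM with vehicle and 51.2 and 50.3 CPM with EGF, carried by VIM, FN1 and CDH2.

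Proteases and hemidesmosome-laminin genes were higher in 6 of 18 cases and lower in 1 (median 0.18). ITGB6, an integrin subunit that activates latent TGF-beta, had 33.1 and 35.2 CPM with vehicle and 111 and 132 CPM with EGF, 3.54-fold higher (log2 fold change 1.82 ± 0.07, edgeR adjusted p = 1.9e-22). MMP13, a collagenase, rose from a low level by 1.44 ± 0.27. SERPINE2, a protease inhibitor, had 10.6 and 12.0 CPM with vehicle and 6.77 and 6.503 CPM with EGF (log2 fold change -0.77 ± 0.12, edgeR adjusted p = 3.0e-06).

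Among other signalling pathways, members mostly moved singly. YAP-TEAD targets were lower in 4 of 14 cases and higher in 0 (median -0.16), namely AMOTL1, which had 163 and 176 CPM with vehicle and 117 and 118 CPM with EGF (log2 fold change -0.53 ± 0.04, edgeR adjusted p = 3.6e-12), PTPN14 (-0.41 ± 0.06), IGFBP3 (-1.56 ± 0.25) and ARHGEF17. Of 27 Wnt pathway genes, 4 rose and 4 fell (median -0.03), the rises including the secreted inhibitor DKK1, with 8.53 and 9.88 CPM with vehicle and 15.3 and 17.1 CPM with EGF (log2 fold change 0.80 ± 0.09, edgeR adjusted p = 1.1e-08), the receptors LRP5 (0.25 ± 0.04) and FZD8 (0.31, not called without EGF replicate 1, at 0.17, or vehicle replicate 2, at 0.29), and the falls including LEF1, above, and the receptor LGR4 (-0.32 ± 0.06) and the ligase RNF43 (-0.18 ± 0.04). Of 16 Notch pathway genes, 1 rose (6.25%) and 3 fell (18.8%), against 9.71% and 6.65% of all genes tested (median 0.00). HEY2, a Notch target, had 16.5 and 15.1 CPM with vehicle and 7.57 and 6.97 CPM with EGF (log2 fold change -1.11 ± 0.11, edgeR adjusted p = 1.5e-09), the coactivator MAML2 had a log2 fold change of -1.17, NRARP of -0.33 and HES1 of 0.19. MAML2 and NRARP were not called without vehicle replicate 2 (-0.99 and -0.25), which left 1 Notch gene called lower, NRARP also not without EGF replicate 1 (-0.12) or by DESeq2 (adjusted p = 0.0594), and HES1 not without vehicle replicate 1 (0.16).

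TGF-beta and BMP genes were higher in 4 of 20 cases and lower in 2 (median 0.00). The ligands went opposite ways, as BMP7 had 209 and 208 CPM with vehicle and 307 and 318 CPM with EGF (log2 fold change 0.58 ± 0.04, edgeR adjusted p = 1.8e-14) and BMP4 had 8.63 and 7.62 CPM with vehicle and 3.48 and 4.05 CPM with EGF (log2 fold change -1.11 ± 0.16, edgeR adjusted p = 9.5e-07). ID1, a target of BMP signals, rose by 1.00 ± 0.22, BAMBI, a decoy receptor, by 0.27 ± 0.05, and the inhibitor SMAD7 had a log2 fold change of -0.32, not called without EGF replicate 1 (-0.25) or vehicle replicate 2 (-0.31). In the retinoic acid pathway, 4 of 15 rose and 3 fell (median -0.03). The retinaldehyde reductase DHRS3 had 1.46 and 2.17 CPM with vehicle and 5.47 and 4.67 CPM with EGF (log2 fold change 1.46 ± 0.19, edgeR adjusted p = 1.9e-07), RDH10, which makes retinaldehyde, rose by 0.82 ± 0.09 and ALDH1A3, which makes retinoic acid, by 1.05 ± 0.16, while ALDH1A1, another enzyme of that step, had 5.85 and 5.49 CPM with vehicle and 2.64 and 2.64 CPM with EGF (log2 fold change -1.10 ± 0.15, edgeR adjusted p = 1.1e-06). RXRA had a log2 fold change of -0.30, which was -0.11 and not called without EGF replicate 2, where 1 member of the list was called lower. Of 15 cyclic AMP enzymes, 2 rose and 3 fell (median -0.07), with the phosphodiesterase PDE4B higher (0.91 ± 0.21), ADCY3 at 0.43 (0.32 and not called without vehicle replicate 2), ADCY6 lower (-0.27 ± 0.06) and ADCY2 as above.

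FOXO targets and insulin-receptor feedback genes, which growth factor signals through AKT tend to silence, were lower in 6 of 18 cases and higher in 2 (median -0.19), or lower in 3 in 1 fit of both lines. SESN3, a sestrin that restrains mTORC1, had 10.1 and 11.3 CPM with vehicle and 7.04 and 6.41 CPM with EGF (log2 fold change -0.67 ± 0.11, edgeR adjusted p = 1.8e-05), GRB10, an adaptor that inhibits the insulin receptor, had 155 and 144 CPM with vehicle and 121 and 108 CPM with EGF (log2 fold change -0.39 ± 0.05, edgeR adjusted p = 2.6e-07), and CITED2 fell as well (-0.36 ± 0.07). PDK4, which shuts pyruvate out of the mitochondrion, went the other way, with 1.37 and 1.58 CPM with vehicle and 4.05 and 4.67 CPM with EGF (log2 fold change 1.54 ± 0.22, edgeR adjusted p = 1.6e-06), and BCL6 rose by 0.37, a call lost without vehicle replicate 1 (0.29). Of 16 genes of the BCL2 family, 2 fell and 0 rose (median -0.01). BMF, a pro-apoptotic BH3-only protein, had 50.4 and 44.6 CPM with vehicle and 31.0 and 24.8 CPM with EGF (log2 fold change -0.75 ± 0.08, edgeR adjusted p = 1.0e-09), and BCL2 had a log2 fold change of -0.22, which was -0.16 and not called without EGF replicate 1. Without EGF replicate 2, 4 genes of the family were called lower.

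Of 18 circadian clock genes, 5 rose and 3 fell (median 0.01), or 2 rose without vehicle replicate 1 and 3 without vehicle replicate 2. BHLHE40, a repressor that feeds back on the clock, had 13.7 and 13.3 CPM with vehicle and 27.6 and 39.6 CPM with EGF (log2 fold change 1.31 ± 0.11, edgeR adjusted p = 2.3e-11), and NPAS2, a partner of BMAL1, had 3.22 and 3.48 CPM with vehicle and 7.57 and 8.67 CPM with EGF (log2 fold change 1.27 ± 0.15, edgeR adjusted p = 4.6e-08). NR1D2 fell (-0.30 ± 0.06), DBP had a log2 fold change of -0.88, not called without vehicle replicate 2 (-0.74), and PER2 of 0.28, not called without vehicle replicate 1 (0.20). Mucins and water channels were higher in 4 of 12 cases and lower in 1 (median 0.37). MUC2, a gel-forming mucin with a copy row of the same name, was at the limit in vehicle and at least 10.6-fold higher with EGF (limit of 3 counts per library). AQP5 had 0.536 and 0.711 CPM with vehicle and 1.53 and 2.83 CPM with EGF (log2 fold change 1.74 ± 0.32, edgeR adjusted p = 8.7e-05), MUC5B rose by 0.62 ± 0.13, and MUC1, a membrane mucin, fell (-0.40 ± 0.07).

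Of 11 imprinted growth genes, 3 rose and 1 fell (median 0.09), with H19 and GRB10 above and PHLDA2, a growth-restraining placental gene, at 6.92 and 6.60 CPM with vehicle and 17.7 and 16.6 CPM with EGF (log2 fold change 1.35 ± 0.11, edgeR adjusted p = 1.2e-11). PEG3 had a log2 fold change of 0.44, not called by DESeq2 (adjusted p = 0.0585) or without EGF replicate 1 (0.38) or either vehicle replicate (0.44). Of 24 interferon response genes, 2 rose and 2 fell (8.33% each, median 0.00), near the 9.71% and 6.65% of all genes tested. STAT2, a subunit of the interferon-activated factor, had 70.7 and 75.5 CPM with vehicle and 52.8 and 56.7 CPM with EGF (log2 fold change -0.42 ± 0.05, edgeR adjusted p = 9.3e-08), IFITM3 had 12.2 and 12.2 CPM with vehicle and 9.10 and 8.67 CPM with EGF (log2 fold change -0.45 ± 0.11, edgeR adjusted p = 0.0019), and OAS3 and GBP2 had log2 fold changes of 0.22 and 0.19 that were not called by DESeq2 (adjusted p = 0.0887 and 0.0764) or when most single libraries were left out. Of 14 NF-kB targets and cytokines, 3 rose and 0 fell (median 0.02), with TNFAIP2 at 9.996 and 11.2 CPM with vehicle and 15.7 and 14.4 CPM with EGF (log2 fold change 0.51 ± 0.10, edgeR adjusted p = 2.9e-04), BIRC3 at a log2 fold change of 0.60 that was lost by DESeq2 (adjusted p = 0.105) and when any of the 4 libraries was left out (0.50 to 0.72), and CXCL8 at 0 counts in vehicle and under 0.5 CPM in EGF. In the metallothionein list, of which 3 of 7 were tested (median 0.28), MT1X had 0.488 and 2.33 CPM with vehicle and 0.306 and 1.41 CPM with EGF, with overlapping groups (log2 fold change -0.88 ± 0.47, edgeR adjusted p = 0.23), and without EGF replicate 2 or vehicle replicate 1 it was called lower (-2.27 and -1.53). MT2A and MT1F had log2 fold changes of 0.67 and 0.28. CDH5, the endothelial cadherin, rose from 0 and 0.237 CPM to 1.03 and 1.60 CPM (log2 fold change 3.26 ± 0.52, edgeR adjusted p = 1.1e-05), a fitted value that was 2.42 without vehicle replicate 1 and 7.95, against 0 counts and so no bound, without vehicle replicate 2, while VWF stayed between 14.7 and 18.0 CPM. The plot of the gene lists gives the share of members called in each.

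**Figure D3:**
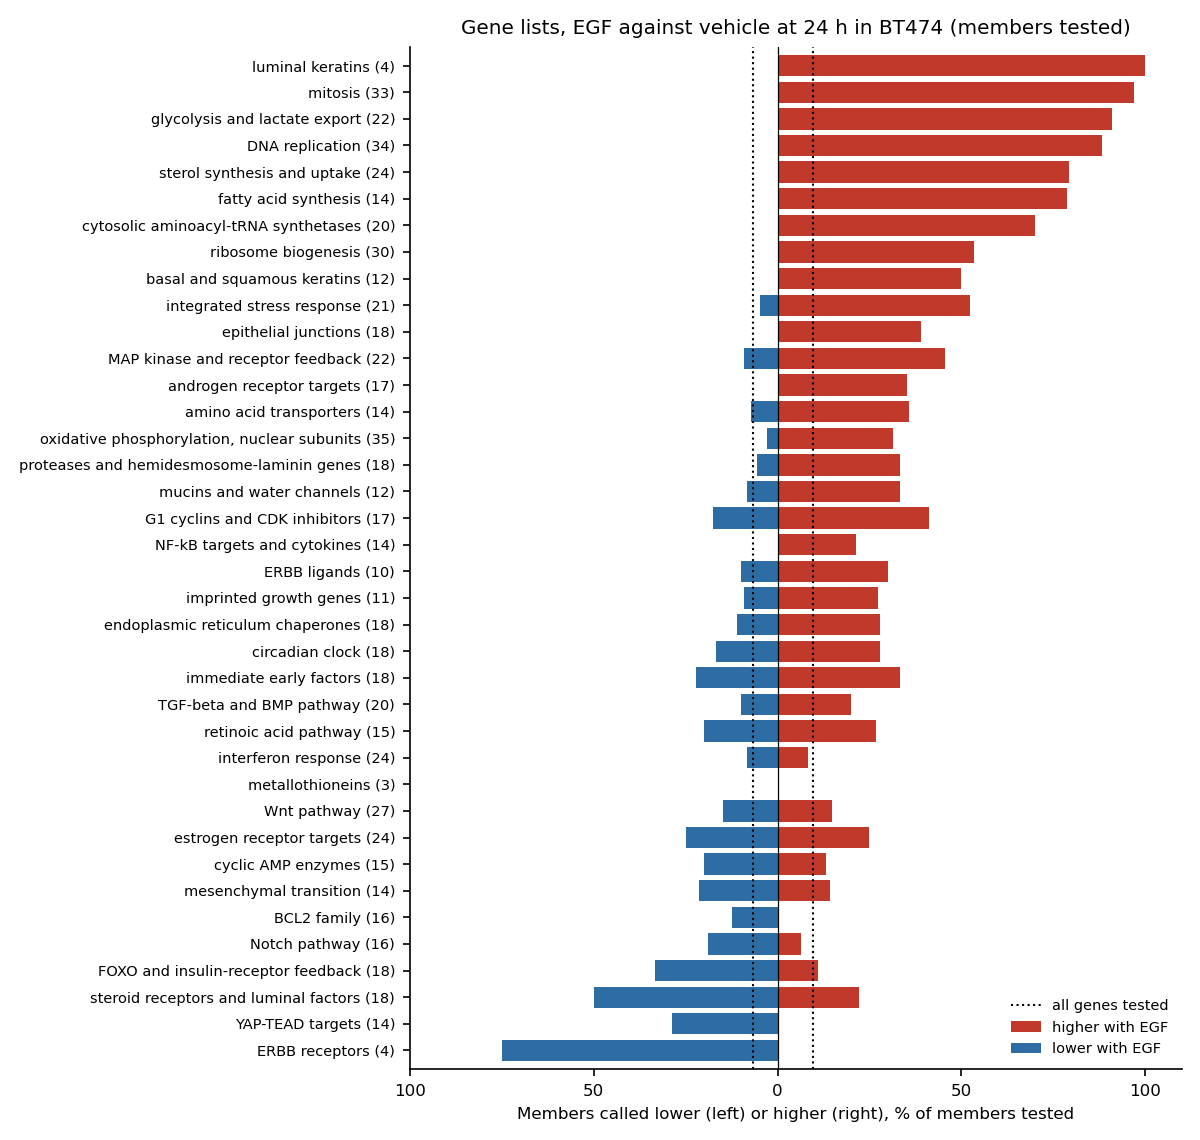
Share of the members tested that were called higher (red, to the right) or lower (blue, to the left) with EGF at 24 h in BT474, in % of the members tested (number in brackets), for each gene list, ordered by the difference of the shares. The dotted lines mark all genes tested, 9.71% higher and 6.65% lower; luminal keratins, mitosis, glycolysis and DNA replication lie furthest to the right and ERBB receptors, YAP-TEAD targets and steroid receptors furthest to the left.

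To ask what separates the response at 24 h from that at 12 h, the 24 h effect was tested against the 12 h effect, which share no library. The effects differed in 130 of 25146 genes (0.517%), 73 with a higher and 57 with a lower log2 fold change at 24 h. That is 56.2% higher, against 43.0% of 93 genes by DESeq2 and 46.3% of 134 with copies summed, and 46.9% of 113 with edgeR's filterByExpr. With a replicate block within each time point, the effects differed in 238 genes. Of the 130 genes, 83 (63.8%) were also called by DESeq2. The number ranged from 49 without EGF 12 h replicate 2 to 273 without EGF 24 h replicate 2.

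GDF15 was the gene whose effect grew most. At 12 h it had 0.603 and 0.499 CPM with vehicle and 2.78 and 3.36 CPM with EGF, so the effect at 24 h was larger by a log2 of 2.80 ± 0.55 (edgeR adjusted p = 0.0070). Its vehicle libraries were also lower at 24 h. H19 grew as well, from 16.7 and 25.5 CPM with EGF at 12 h (difference 1.34 ± 0.32, edgeR adjusted p = 0.041). TGFBI had 6.49 and 6.61 CPM with vehicle and 7.41 and 7.75 CPM with EGF at 12 h, where its groups were close. At 24 h TGFBI averaged 3.00 CPM with vehicle and 8.38 CPM with EGF (difference 1.27 ± 0.19, edgeR adjusted p = 2.9e-04). Its vehicle level was thus far lower at 24 h than at 12 h, and its EGF level only slightly higher. The effects on DHRS3 and BPIFA2 also grew, by 1.82 ± 0.28 and 1.96 ± 0.41.

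PTGS1 and RN7SK turned from lower to higher. PTGS1, the constitutive cyclooxygenase, had 2.13 and 2.33 CPM with vehicle and 1.30 and 1.09 CPM with EGF at 12 h and 1.12 and 1.94 CPM with vehicle and 3.75 and 4.19 CPM with EGF at 24 h (difference 2.22 ± 0.33, edgeR adjusted p = 1.9e-04). RN7SK, the noncoding RNA that holds the elongation factor P-TEFb, had 20.8 and 30.9 CPM with vehicle and 15.2 and 14.6 CPM with EGF at 12 h and 10.7 and 8.73 CPM with vehicle and 26.2 and 27.8 CPM with EGF at 24 h (difference 2.27 ± 0.28, edgeR adjusted p = 6.5e-06). RN7SK carries no poly(A) tail and has many copies in the genome, so its counts in these libraries are uncertain. FAM177B, at 0.780 and 0.632 CPM with vehicle and 2.37 and 1.98 CPM with EGF at 24 h, had an effect that was higher at 24 h by 2.05 ± 0.47.

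Other effects passed their height by 24 h or went deeper. RAB31, a small GTPase of vesicle traffic, had 2.59 and 2.29 CPM with vehicle and 6.19 and 8.09 CPM with EGF at 12 h and 2.88 and 3.00 CPM with vehicle and 3.82 and 3.86 CPM with EGF at 24 h (difference -1.15 ± 0.24, edgeR adjusted p = 0.012), and MS4A7 had 4.83 and 4.53 CPM with vehicle and 13.1 and 11.3 CPM with EGF at 12 h and 4.49 and 3.79 CPM with vehicle and 5.54 and 4.52 CPM with EGF at 24 h (difference -1.08 ± 0.20, edgeR adjusted p = 0.0035). Neither was called at 24 h. ADCY2 fell further (difference -1.51 ± 0.28, edgeR adjusted p = 0.0035), as did PCDH7, a protocadherin (difference -1.01 ± 0.24, edgeR adjusted p = 0.041), and the GTPase activator ARHGAP6 (difference -1.01 ± 0.24, edgeR adjusted p = 0.041). PGR and IGFBP5 also fell further, with differences of -0.41 ± 0.07 and -0.59 ± 0.06.

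Replication and mitosis genes kept different time. In the replication list 33 of 34 members were called higher at 12 h, against 9.04% of all genes, and 30 at 24 h, and the effect was smaller at 24 h for MCM3, MCM5 and MCM6, with differences of -0.27, -0.37 and -0.38. In the mitosis list 16 of 33 were higher at 12 h and 32 at 24 h, and the effect was larger at 24 h for 5, UBE2C, AURKA, CCNB1, TOP2A and CENPF, with differences of 0.27 to 0.39. Sterol genes were at 19 of 24 at both times, and immediate early factors at 4 of 18 higher and 3 lower at 12 h. DUSP4 rose further (difference 0.32 ± 0.05, edgeR adjusted p = 6.7e-04) and so did ACSS2 (difference 0.64 ± 0.13, edgeR adjusted p = 0.0077).

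**Figure D4:**
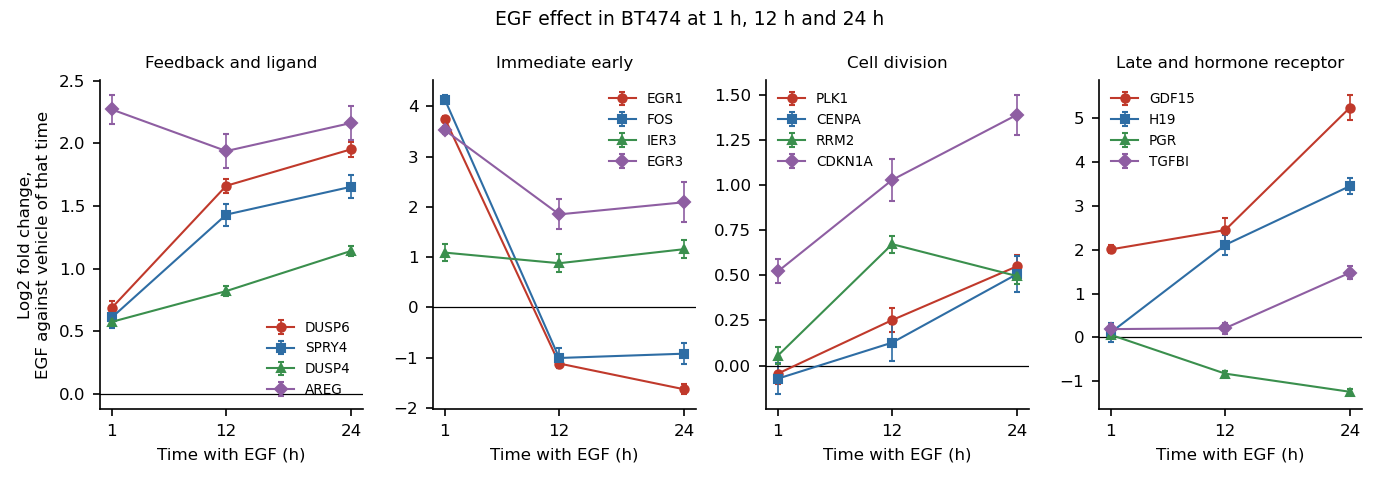
Log2 fold change of EGF against the vehicle of the same time, at each of 3 times with EGF in BT474, for 16 genes in 4 panels, with bars of 1 standard error (2 libraries per group). EGR1 and FOS stand near 4 at 1 h and below 0 at 12 h and 24 h, DUSP6, SPRY4 and DUSP4 climb, PLK1 and CENPA lie higher at 24 h than at 1 h, and GDF15 reaches 5.25 at 24 h while PGR falls to -1.24.

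Whether the resistant line responded alike was tested as the difference between the EGF effects at 24 h in BT474R and in BT474, which share no library, in 1 fit of all 40 libraries. The effects differed in 989 of 24641 genes (4.01%), 474 with a higher log2 fold change in BT474R (1.92%) and 515 with a lower (2.09%). The number was 618 without BT474 EGF replicate 1 and 657 without BT474 vehicle replicate 2. In BT474R alone, 4208 of 24287 genes (17.3%) were DEGs, 2417 higher (9.95%) and 1791 lower (7.37%). BT474R is 1 clone, so a difference of the lines and a feature of that clone cannot be told apart.

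Interferon response genes separated the lines most. Of the 24 tested in BT474, the effect was higher in BT474R in 17 and lower in 0, and 20 of 22 tested in BT474R rose there. GBP1, an interferon-induced GTPase, had 0.341 and 0.0790 CPM with vehicle and 0 and 0.0471 CPM with EGF in BT474 and 0.0384 and 0.0941 CPM with vehicle and 13.2 and 11.0 CPM with EGF in BT474R. IFITM1, an interferon-induced membrane protein, had 1.12 and 0.948 CPM with vehicle and 0.765 and 0.565 CPM with EGF in BT474 and 0.0384 and 0 CPM with vehicle and 6.63 and 6.80 CPM with EGF in BT474R. IFITM3, its close relative, had 0.0769 and 0.0941 CPM with vehicle and 3.27 and 2.36 CPM with EGF in BT474R and had fallen in BT474 (difference 5.41 ± 0.44, edgeR adjusted p = 4.7e-11). So RNA of all 3 appeared with EGF in BT474R from levels at or under the limit, while in BT474 GBP1 and IFITM1 stayed low and IFITM3 stood above its level in BT474R in both groups. GBP4, APOL6 and IFIT3 followed, with EGF libraries of BT474R at 6.11 and 4.44, 21.5 and 17.0, and 9.38 and 6.76 CPM, and as some vehicle libraries held no count of them, their fitted differences are not bounds. Paralogs of the GBP and IFITM families could share reads.

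Immediate early factors were higher with EGF in BT474R at 24 h in 11 of 18 cases, with 0 lower, and the effect was higher than in BT474 in 8. EGR1 had 5.996 and 4.47 CPM with vehicle and 7.94 and 9.12 CPM with EGF in BT474R (difference 2.31 ± 0.25, edgeR adjusted p = 3.8e-08), opposite in direction to BT474. FOS had 1.54 and 3.15 CPM with vehicle and 13.3 and 16.1 CPM with EGF in BT474R (difference 3.60 ± 0.40, edgeR adjusted p = 7.0e-08), also opposite. DUSP6 rose in both lines, with 59.1 and 59.6 CPM with vehicle and 523 and 526 CPM with EGF in BT474R (difference 1.18 ± 0.13, edgeR adjusted p = 6.4e-08), while DUSP4 rose less in BT474R (difference -0.67 ± 0.07, edgeR adjusted p = 3.7e-08).

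Mitosis genes went the other way. In BT474R 5 of 33 were higher with EGF and 2 lower, and the effect was lower than in BT474 in 21 of 33 and higher in 0. PLK1 had 49.3 and 55.8 CPM with vehicle and 52.0 and 48.5 CPM with EGF in BT474R (difference -0.62 ± 0.13, edgeR adjusted p = 0.0017), and the differences were -0.37 ± 0.07 for KIF2C and -0.57 ± 0.13 for CENPA. Replication genes were higher with EGF in 24 of 34 cases in BT474R.

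Within BT474R, steroid receptors and luminal factors were lower with EGF than with vehicle in 10 of 18 cases and higher in 2. The effect was lower than in BT474 in 7 of 18 and higher in 2. GATA3 had 48.4 and 38.9 CPM with vehicle and 11.3 and 10.6 CPM with EGF in BT474R, a deeper fall (difference -1.52 ± 0.15, edgeR adjusted p = 4.3e-09), and ESR1 fell further as well (difference -0.69 ± 0.12, edgeR adjusted p = 1.6e-04), while PGR fell less (difference 0.49 ± 0.13, edgeR adjusted p = 0.025). ERBB4 fell further in BT474R (difference -0.46 ± 0.14, edgeR adjusted p = 0.048). SERPINE2, CDKN2B, STAT2, TFAP2A and BAMBI were called in opposite directions in the lines, with differences of 1.58, 2.33, 0.70, -0.40 and -0.66. H19 rose in both, but from 3067 and 3978 to 8776 and 9621 CPM in BT474R, a smaller log2 fold change at a far higher level (difference -2.08 ± 0.29, edgeR adjusted p = 6.2e-06). NDST4, a heparan sulfate enzyme, had 5.996 and 4.61 CPM with vehicle and 0.305 and 0.244 CPM with EGF in BT474R (difference -2.75 ± 0.56, edgeR adjusted p = 0.0013).

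**Figure D5:**
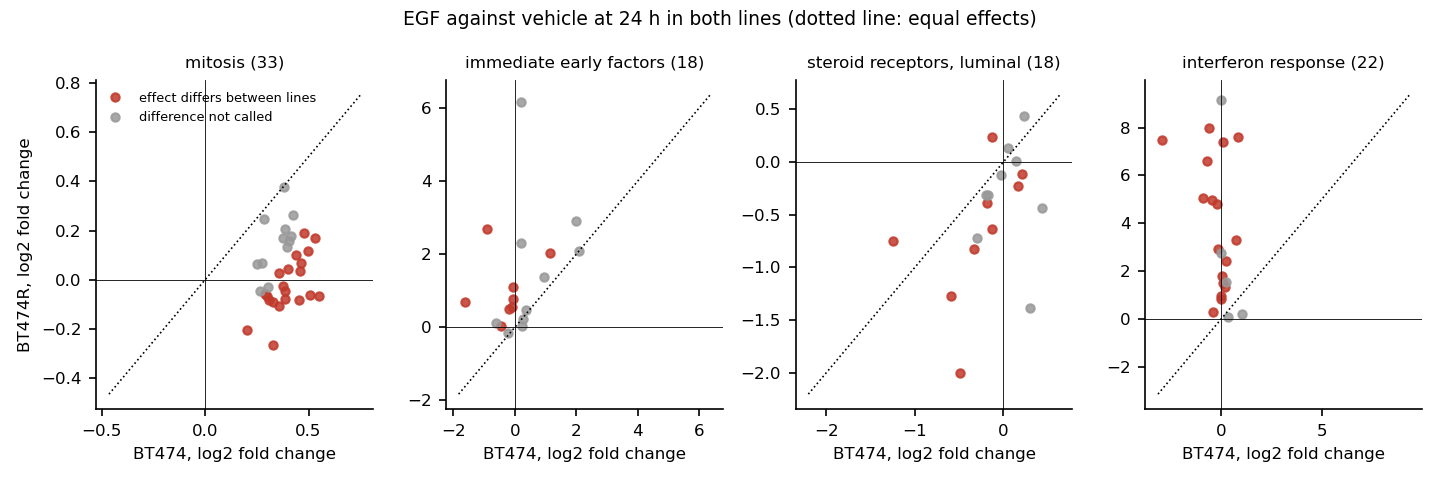
Log2 fold change of EGF against vehicle at 24 h in BT474R (vertical axis) over that in BT474 (horizontal axis) for the members of 4 gene lists that were tested in both lines, with the dotted line at equal effects and red points for genes whose effect differed between the lines. All 33 mitosis genes lie below the dotted line, 21 of them in red, and 20 of 22 interferon genes lie above it, with 17 in red.

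HRG, which binds ERBB3 and ERBB4 rather than EGFR, was tested against EGF directly at 24 h. The ligands differed in 193 of 25146 genes (0.768%), of which 141 were higher with EGF and 52 higher with HRG. That number was 12 when only the 4 libraries compared were fitted and 708 without EGF replicate 2, so the differences below rest on the spread estimated over all 20 BT474 libraries. Of the 193, 73.1% were higher with EGF, against 58.2% of 402 with no filter on low counts and 61.1% of 162 with copies summed. With a replicate block within each time point, the ligands differed in 429 genes. By DESeq2 they differed in 146, of which 106 were among the 193 (54.9% of these). Against the shared vehicle, HRG gave 6062 DEGs (3155 higher, 12.5%, and 2907 lower, 11.6%) and EGF 4113. In the mitosis list, 32 of 33 members were higher than vehicle with each ligand.

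Several genes that fell with EGF were lower still with HRG. SOCS2 had 5.28 and 6.69 CPM with EGF and 2.73 and 3.34 CPM with HRG (difference 0.98 ± 0.15, edgeR adjusted p = 2.4e-04), EGR1 had 9.56 and 9.09 CPM with EGF and 4.64 and 5.96 CPM with HRG (difference 0.83 ± 0.13, edgeR adjusted p = 3.2e-04) and IGFBP5 had 4634 and 4065 CPM with EGF and 3598 and 3239.7 CPM with HRG (difference 0.35 ± 0.04, edgeR adjusted p = 3.7e-06). PGR, GATA3, CDH2 and CBLN2 differed the same way, by 0.23, 0.22, 0.46 and 0.62. ERBB2 had 6777 and 6848 CPM with EGF and 6161 and 6417 CPM with HRG (difference 0.12 ± 0.02, edgeR adjusted p = 0.014) and ERBB3 differed by 0.15 ± 0.04. The mucin gene MUC19, the SOX factor SOX6 and CTTNBP2 were also lower with HRG, by log2 differences of 1.11, 1.03 and 0.73.

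Others that rose with EGF were higher with HRG. AREG had 13.8 and 13.9 CPM with EGF and 19.8 and 17.6 CPM with HRG (difference -0.44 ± 0.10, edgeR adjusted p = 0.015), TGFBI had 8.37 and 8.39 CPM with EGF and 13.1 and 12.0 CPM with HRG (difference -0.59 ± 0.11, edgeR adjusted p = 0.0028), and SLC7A5 had 266 and 235 CPM with EGF and 343 and 306 CPM with HRG (difference -0.37 ± 0.05, edgeR adjusted p = 1.1e-04). PTGS1, CDH5 and KRT4 were also higher with HRG, with log2 differences of EGF minus HRG of -0.75, -1.39 and -0.92, as were the small nucleolar RNA SNORA105A (-0.82) and the pseudogene CYP2B7P (-0.81), both not called against vehicle. Doses were 50 ng/mL of EGF and 10 ng/mL of HRG, so the ligands were not compared at a matched dose.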

How the data were processed

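The 40 libraries, from BT474 and BT474R, were made with a kit that selects poly(A) RNA. The authors trimmed the reads with Trim Galore 0.6.6, checked them with FastQC, aligned them to GRCh38.p13 and counted them on genes with featureCounts, and deposited raw counts, neither normalized nor filtered. The annotation release, strand setting and treatment of multi-mapping reads are not given in the sources used here. Of the 44584 names, 5078 repeat another name with a number (2.96% of counts) and were kept as separate genes, so reads of such genes may be split.

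Groups came from the sample titles. Counts were tested with edgeR 4.0.16 in R 4.3.3 (TMM, quasi-likelihood F test, Benjamini-Hochberg adjustment over all genes tested, threshold 0.05) in 1 fit of the 20 BT474 libraries, on genes counted at least once in 10 or more of them, and for BT474R against BT474 in 1 fit of 40 libraries (24641 genes). Fold changes are log2, and CPM are counts scaled to a TMM-adjusted library size of 1000000. The limit of 3 counts covers counting error only. Common dispersion was 0.00121 in BT474. Between replicates, the median chi-square over genes was 0.850 with vehicle and 1.27 with EGF, against 0.455 from counting noise alone, so replicates differed by more than counting.

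Members, gene lists and motifs were chosen with earlier results of these data known. Named are the 12 DEGs with the largest rise and the 12 with the largest fall, of those averaging 1 CPM or more without overlap between groups, the 4 ERBB receptors, up to 3 genes per direction in each list, and up to 5 per direction in each other comparison. Names starting with LOC and repeated names were left out. Other names were added after their values were seen. Lists are described by counts and medians, with no set test. Genes of the mitochondrial genome were not analysed here, and a few genes named by the rule are left out of the text. The alternatives were DESeq2 1.42.0, its size factors in edgeR, filterByExpr, no filter, copies summed, a replicate block, a block within each time, other sets of libraries, and leaving out each library; recounting the lists under these was added after seeing the data.

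Tested on simulated data for EGF against vehicle at 24 h, with 200 of 24293 genes changed, edgeR called 183 of the 200 (91.5%), each in its true direction, and 18 of the others. It called 84%, 91% and 100% of those changed by a log2 of 0.5, 1 and 2. The changed genes had at least 1 CPM in vehicle, and counts were drawn with edgeR's own estimates of spread. Changes under 0.5 were not simulated, while the DEGs had a median absolute log2 fold change of 0.31, so the run does not cover most calls. Python 3.11.15 and matplotlib 3.10.9 were used for motifs and figures.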

Additional observations from a re-analysis of the deposited data

Results flagged for a closer look

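The effect of EGF at 24 h differed from that at 12 h, by the test of the difference, in 130 genes, and differed between BT474R and BT474 in 989 genes. Of the 186 named genes, 22 differed between the times and 63 between the lines. Printed here are those with the largest differences and those called in opposite directions, and the other 12 and 45 had differences from -0.76 to 1.82 and from -1.52 to 2.81.

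Between the times, the effect was higher at 24 h for GDF15 (2.80), RN7SK (2.27), PTGS1 (2.22), FAM177B (2.05) and BPIFA2 (1.96), as log2 differences. It was lower at 24 h for ADCY2 (-1.51), RAB31 (-1.15), MS4A7 (-1.08), ARHGAP6 (-1.01) and PCDH7 (-1.01). RN7SK and PTGS1 were called lower with EGF at 12 h and higher at 24 h, and the effects on EGR1, FOS, CDKN2B, STAT2, SERPINE2, IFITM3, TFAP2A and BAMBI were called in opposite directions in the lines.

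Between the lines, the effect was higher in BT474R for GBP4 (11.01), GBP1 (10.39), IFITM1 (8.60), APOL6 (7.31), IFIT3 (7.28), IFITM3 (5.41), FOS (3.60), CDKN2B (2.33), EGR1 (2.31), SERPINE2 (1.58) and STAT2 (0.70). It was lower in BT474R for OTOGL (-5.38), NDST4 (-2.75), SLC25A48 (-2.61), H19 (-2.08), AKR1B10 (-2.01), BAMBI (-0.66) and TFAP2A (-0.40). GBP1, GBP4, IFITM1, APOL6, IFIT3 and OTOGL had libraries at 0 counts, so their differences are fitted values and no bounds. OTOGL, which encodes otogelin-like protein, had 2.24 and 3.04 CPM with vehicle and 2.33 and 1.32 CPM with EGF in BT474 and 0.269 and 0.329 CPM with vehicle and 0 and 0 CPM with EGF in BT474R. AKR1B10, an aldo-keto reductase, had 0.341 and 0.158 CPM with vehicle and 1.53 and 1.23 CPM with EGF in BT474 and 6.73 and 7.85 CPM with vehicle and 11.3 and 9.36 CPM with EGF in BT474R. SLC25A48, a mitochondrial carrier, had 9.75 and 9.95 CPM with vehicle and 10.5 and 12.3 CPM with EGF in BT474, with a vehicle-to-EGF change that was not called, and 0.423 and 0.517 CPM with vehicle and 0.0436 and 0.122 CPM with EGF in BT474R.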

How the results depend on the processing

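For EGF against vehicle at 24 h, with 4113 genes called, the number was 3294 by DESeq2, 4164 with DESeq2's size factors, 4399 with filterByExpr, 4280 with no filter, 4044 with copies summed, 2864 with only the 4 libraries compared, 3420 in the fit of both lines, and 2562 to 3909 when a library was left out, lowest without vehicle replicate 2. For the 24 h against the 12 h effect (130), it was 230 with no filter, 80 with only the libraries compared and 49 to 273 when a library was left out. For BT474R against BT474 (989), it was 553 with only the 8 libraries compared and 618 to 1107 when a library was left out. For EGF against HRG (193), it was 402 with no filter, 12 with only the 4 libraries compared and 151 to 708 when a library was left out, highest without EGF replicate 2. Where a library was left out, the remaining library of its group was assumed to vary like the other groups. Which genes were called changed as well as their number, so similar numbers need not hold the same genes. By DESeq2, 79.7% of the 4113, 63.8% of the 130, 84.6% of the 989 and 54.9% of the 193 were called again. The cause of these shifts was not tested.

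With the replicate number as a block (replicate block), the numbers were 4290, 158, 1046 and 255 for these comparisons in the order above, and with a replicate block within each time point 4650, 238, 1138 and 429. Deviations of same-numbered 24 h libraries from their group means correlated at 0.297 to 0.426, across 3 pairs of groups. This was over 10144 genes of at least 10 CPM, so same-numbered libraries varied together in part. The reported tests hold no block for this. The labels give only the number, and no source states a shared culture or day. No gene called both in the reported test and in an alternative changed direction in any of the 4 comparisons. As both used largely the same libraries, this follows mostly from requiring both calls.

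Of 186 named genes, DESeq2 ended 11 calls, copies summed ended 2, and leaving out a library ended 15 to 26, most without vehicle replicate 2, while the size factors, filterByExpr and both blocks ended 0. None of these turned direction past the threshold. At this depth, levels under 0.115 to 0.146 CPM, which are 3 counts, were not told from 0.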
